A study of Mus musculus with 3 samples.

Results

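Solute carriers are membrane proteins that move nutrients, ions, metals, cofactors and metabolites across the plasma membrane and the membranes of organelles, and the mouse genome holds a large family of them, named Slc with a family number and a member letter. The genes described here were selected on their names and on measured read counts: they are those whose mouse symbol has that form and whose estimated read count reached 30 in at least 1 of 3 libraries of mouse epiblast stem cells (EpiSCs), leaving out 8 named genes, which were Slc2a1, Slc2a3, Slc16a1, Slc16a3, Slc3a2, Slc7a5, Slc7a11 and Slc22a18. That gave 185 genes of 17209 listed in any table, out of 316 listed genes with such a symbol, of which 124 did not reach 30 counts. Of the genes left out by name, 7 had passed the minimum. The choice used read counts, so that a gene had to be high enough in at least 1 library to be a member, and the number of genes detected is not a result.

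EpiSCs are pluripotent and are derived from the post-implantation epiblast. In such cells amino acid and glucose uptake feed rapid growth, mitochondrial carriers link the matrix to the cytosol, and ion carriers set volume and pH. The cells, of strain 129 at passage 1, were routinely cultured in serum on gelatin with IWR1, a tankyrase inhibitor that dampens Wnt signalling, and a further inhibitor, Y27632 (Y27). The NT library was from cells from which both inhibitors had been withdrawn overnight, while for the other libraries a single inhibitor was given for 12 h, IWR1 at 2 µM or Y27 at 0.5 µM. The labelled Y27 dose is low for this compound and its unit may be in error. Each group was 1 library, so no difference has a replicate check, no test between the groups could be made and no p-value is given. Because the cells were routinely grown with both inhibitors, NT is a withdrawal and not a culture that never met them. The labels do not say whether the treated cells had an inhibitor-free period of their own, so withdrawal in NT and treatment in the other libraries cannot be told apart as the source of a difference. Whether the cultures came from 1 or several EpiSC lines is not stated in the labels.

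In total, NT had 5767550 estimated counts, IWR1 5607725 and Y27 5459332. As a check of the labels, Axin2, a feedback inhibitor induced by Wnt signalling, was at 173, 39.5 and 167 CPM (counts per library size) in NT, IWR1 and Y27, and Tagln, an actin-binding protein gene, at 244, 173 and 73.1 CPM. All 10 markers of the primed epiblast were at 1 FPKM or more (reads per transcript length and library size) in every library, with Pou5f1 between 888 and 1070 FPKM. Their summed level was between 1748 and 2287 FPKM, but single markers differed in either direction. T (808, 178 and 826 FPKM in NT, IWR1 and Y27), Nanog, Cdh2 and Pou5f1 were lower in IWR1 than in NT. Dnmt3b (88.0, 177 and 103 FPKM), Fgf5, Otx2, Sox2, Zic2 and Pou3f1 were higher there. Markers of other cells were lower: 5 neural genes summed to 60.6, 67.9 and 36.4 FPKM in NT, IWR1 and Y27, most of it Nes and Tubb3, and 6 trophoblast genes to 52.4, 32.6 and 63.9 FPKM, most of it Eomes (42.1, 24.8 and 55.6 FPKM), with Elf5 and Tpbpa not listed. The 6 genes of blood and endothelium summed to 9.08, 6.28 and 4.45 FPKM, with Ptprc, Cd34 and Hbb-bt not listed. Those of fibroblasts, which also belong to other mesenchyme, summed to 24.5, 15.7 and 12.4 FPKM over 9 genes in NT, IWR1 and Y27, with Lum not listed, while those of extraembryonic endoderm summed to at most 1.97 FPKM over 8 genes, with Sox17, Afp and Ttr not listed. The 8 naive pluripotency markers summed to 7.29, 8.41 and 5.51 FPKM, with Dppa3 not listed. The part of these other cells in the differences below was not tested. In such bulk samples fewer cells of a type and less RNA per cell cannot be told apart.

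Levels in CPM are counts scaled to library size by the TMM method, and FPKM values, which are per length, are used wherever genes are compared with each other. A log2 difference is taken after adding 1 CPM to each level, and past 2-fold means at least 1 on that scale. Ranges in brackets are exact 95% intervals of a fold and take in counting error alone. A library called highest or lowest is so by its value, and not every such order is beyond counting error. By family, 179 of the 185 members were set out in 13 substrate classes. The remaining 6 have symbols of this form but encode no transporter: Slc9a3r1 and Slc9a3r2 encode scaffold proteins that bind transporters, Slc4a1ap an adaptor, Slc7a6os a gene on the opposite strand of Slc7a6, Slc36a1os an opposite strand RNA and Slc2a4rg-ps a pseudogene.

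The upstream sequences of 3 members are shown first because these genes are among those with the larger differences below: Slc15a2, a peptide transporter gene highest in Y27, Slc9a7, a sodium-proton exchanger gene highest in IWR1, and Slc39a8, a zinc importer gene higher in IWR1 than in the other libraries. Each is the 250 bases before the first RefSeq start listed for the gene, 5' to 3', and overlaps 0 annotated exons.
Slc15a2, GRCm38.p6, chr16:36784963-36785212, minus strand: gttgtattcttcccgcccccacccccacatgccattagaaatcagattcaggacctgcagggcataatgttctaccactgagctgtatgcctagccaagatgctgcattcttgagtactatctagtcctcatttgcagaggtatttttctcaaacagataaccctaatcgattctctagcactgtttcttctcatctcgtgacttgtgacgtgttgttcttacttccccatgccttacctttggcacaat
Slc9a7, GRCm38.p6, chrX:20291828-20292077, minus strand: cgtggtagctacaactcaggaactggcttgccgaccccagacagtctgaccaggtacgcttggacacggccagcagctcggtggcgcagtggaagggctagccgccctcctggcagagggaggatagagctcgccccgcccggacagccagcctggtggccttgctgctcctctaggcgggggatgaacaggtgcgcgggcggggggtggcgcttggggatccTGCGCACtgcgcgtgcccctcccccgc
Slc39a8, GRCm38.p6, chr3:135825029-135825278, plus strand: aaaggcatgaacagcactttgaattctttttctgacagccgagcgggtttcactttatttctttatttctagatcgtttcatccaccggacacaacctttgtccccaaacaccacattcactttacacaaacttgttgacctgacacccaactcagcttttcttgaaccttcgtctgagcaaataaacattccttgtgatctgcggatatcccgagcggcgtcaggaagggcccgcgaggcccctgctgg
Capitals mark matches, on either strand, to TGATGNAAN (the core of the amino acid response element), TGCACNC or TGCGCNC (metal response element), CACGTG (E-box) and CTTTGAT (TCF/LEF core). The only match in these 3 sequences was a metal response element core at positions -27 to -21 of Slc9a7, counted back from the start, and 0 bases were shared by matches of different motifs. Over whole windows of 300 bases, from 250 before to 50 after a start, 142 of the 185 members had an entry in RefSeq's promoter table, 194 windows in all. The E-box stood in 14.4% of the members' windows, against 10.1% of those of all genes with at least 30 counts and 7.15% of all 32851 windows. The other shares, for members against genes with at least 30 counts, were 36.1% against 36.9% for the metal response element, 2.06% against 2.09% for the amino acid response element and 4.12% against 2.38% for the TCF/LEF core. These are matches of letters, and no binding was measured. Slc7a3 and Slc39a14, described below, had no entry.

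Among the members, mitochondrial carriers held the largest share of the summed level and most other classes a small one. Slc25a3, which carries phosphate into the mitochondrial matrix, had the highest value in every library, at 356, 330 and 304 FPKM in NT, IWR1 and Y27. Slc25a5 and Slc25a4, which encode exchangers of ADP for ATP across the inner mitochondrial membrane, were at 345, 319 and 299 FPKM and at 246, 206 and 215 FPKM. The counting intervals of Slc25a3 and Slc25a5 overlapped in NT (344 to 369 and 331 to 359 FPKM), in IWR1 (317 to 342 and 306 to 333 FPKM) and in Y27 (292 to 316 and 287 to 313 FPKM), so the order of this pair is not resolved. Slc25a4 lay below both in each library, at 234 to 258 FPKM in NT. Slc25a39, a mitochondrial glutathione carrier, came next at 99.9, 97.0 and 88.4 FPKM. Together the 33 mitochondrial carriers made up 41.9%, 38.9% and 39.3% of the members' summed FPKM, ahead of the 26 amino acid transporters with 13.9%, 17.0% and 14.2% and the 25 metal ion transporters with 10.6%, 10.9% and 11.1%. The median member was near 8 FPKM in each library (7.96, 8.05 and 8.09), and the lowest, the sodium-calcium exchanger gene Slc8a1, was at 0.45, 0.26 and 0.65 FPKM.

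**Figure D1:**
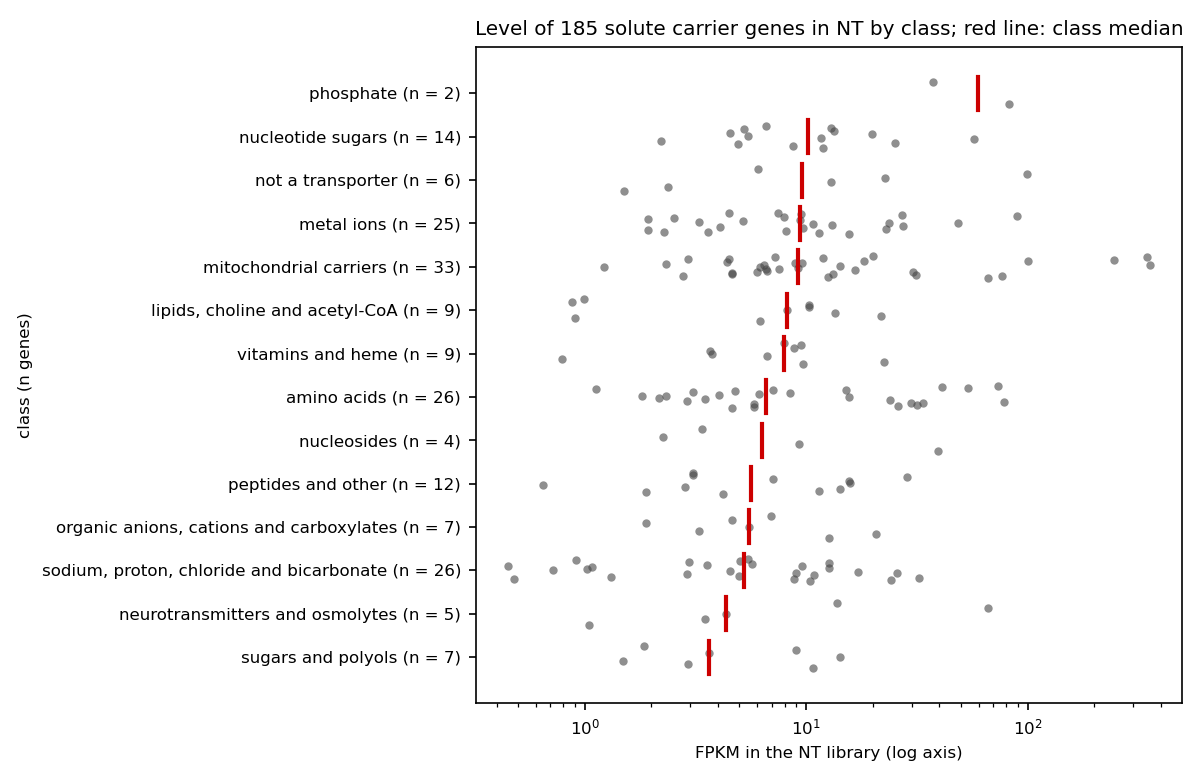
FPKM in the NT library (log axis) of each of the 185 genes, in rows by substrate class, with the class median as a red line. Slc25a3, Slc25a5 and Slc25a4 stand apart at 246 FPKM and above, while class medians of all classes but the phosphate importers lie between 3.64 and 10.2 FPKM.

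At the surface of the cell, the amino acid carrier with the highest mean level over the libraries was Slc38a2, a sodium-coupled transporter of small neutral amino acids, at 78.2, 94.6 and 89.6 FPKM in NT, IWR1 and Y27. Slc39a7, a zinc transporter of the secretory pathway, led the metal ion class at 89.1, 81.4 and 78.2 FPKM, and Slc20a1, a sodium-phosphate importer, the phosphate class at 82.0, 89.8 and 73.7 FPKM. Slc6a6, the taurine transporter, was at 66.5, 59.6 and 65.5 FPKM, Slc35b1, which carries ATP into the endoplasmic reticulum although its family is that of nucleotide sugars, at 57.4, 47.0 and 50.6 FPKM, and Slc29a1, a nucleoside transporter, at 39.6, 33.2 and 43.7 FPKM. The 7 sugar and polyol genes had the lowest class median in every library, at 3.64, 3.66 and 3.66 FPKM, with Slc37a3 their highest, but this class lacks the glucose importers Slc2a1 and Slc2a3, which the rule leaves out. Around the minimum, Slc44a5 (21, 8 and 30 counts in NT, IWR1 and Y27) and Slc22a21 (25.1, 30.2 and 23.0 counts) were just inside, and Slc35d2 (20.3, 29.3 and 23.2 counts) and Slc26a6 (20, 28 and 22 counts) just outside.

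The first comparison, IWR1 over NT, asks which transporter genes differed with the tankyrase inhibitor. Few did by 2-fold: 3 members were higher and 2 lower, or 1.62% and 1.08% of the 185, while of all 11026 genes with at least 30 counts 1.95% were at least 2-fold higher and 1.94% at least 2-fold lower. At 1.5-fold, 19 members (10.3%) were higher and 7 (3.78%) lower, against 10% and 5.30% of all genes. The members' median log2 difference was 0.01, and that of all genes -0.01. These shares lie near those of the background, so they say nothing particular of solute carriers, and what follows describes single genes. With a cubic trend of all genes' differences on transcript length and GC content taken out, 3 members were at least 2-fold higher and 4 lower, against 1.02% and 1.70% of the whole set of genes.

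The largest difference was that of Slc27a2 (Entrez Gene 26458), which encodes a very long-chain acyl-CoA synthetase and fatty acid transport protein. It had 12 counts in NT, 69 in IWR1 and 13 in Y27, or 2.12, 12.3 and 2.33 CPM. The IWR1 library was thus the high one, 5.81-fold (3.12 to 11.8) above NT and 5.29-fold (2.90 to 10.4) above Y27, while Y27 and NT differed by 1.10-fold (0.462 to 2.63). The log2 difference from NT was 2.09, and 2.10 with the length and GC trend removed. Its relative Slc27a3 was at 51.0, 37.2 and 42.5 CPM and Slc27a4, another fatty acid transport protein gene, at 55.6, 45.4 and 41.2 CPM in NT, IWR1 and Y27, both highest in NT. Slc9a7, an exchanger of sodium or potassium for protons in the trans-Golgi network, had 13, 34 and 19 counts, 2.64-fold (1.36 to 5.45) more in IWR1 than in NT per library size.

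Both ascorbate transporter genes were higher in IWR1 than in NT. Slc23a2, the sodium-coupled vitamin C transporter of most tissues, was at 44.6 CPM in NT, 85.2 CPM in IWR1 and 54.8 CPM in Y27, 1.91-fold (1.64 to 2.24) higher in IWR1 than in NT. Slc23a1, its epithelial relative, was low, at 2.45, 6.01 and 6.73 CPM, and its counts were partly fractional, which can arise when reads match more than 1 gene. It was 2.45-fold (1.28 to 4.95) higher in IWR1 and 2.75-fold (1.46 to 5.49) higher in Y27 than in NT, so that NT was its low library, whereas IWR1 was the high library of Slc23a2.

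In the metal ion class 2 zinc importer genes lay past 1.5-fold above NT in IWR1 and 1 exporter gene past it below, 8% and 4% of 25 against 10% and 5.30% of all genes. Slc39a14, which imports zinc, iron and manganese, was at 47.6, 87.2 and 48.2 CPM in NT, IWR1 and Y27, 1.83-fold (1.58 to 2.13) higher in IWR1 than in NT. Slc39a8, its nearest relative in substrates, was at 95.2, 156 and 104 CPM, 1.64-fold (1.47 to 1.83) higher in IWR1 than in NT. For each, NT and Y27 lay close together, with Y27 over NT at 1.01-fold (0.852 to 1.20) and 1.09-fold (0.971 to 1.23). The counts of Slc39a8 were partly fractional. With the trend removed, the IWR1 log2 differences from NT were 0.96 for Slc39a14, which was 0.86 before, and 0.50 for Slc39a8, which was 0.71 before. Over the 25 metal ion genes the median log2 difference from NT was -0.06. Of these genes 9 were above and 16 below 0, against 5317 and 5709 of all 11026 genes. The class's summed counts were 1.05-fold (1.01 to 1.08) of those in NT with Slc39a14 and Slc39a8 and 0.960-fold (0.926 to 0.996) without them. In the other direction, Slc30a2, a zinc exporter of vesicles, had 44 counts in NT, 15 in IWR1 and 40 in Y27, 2.90-fold (1.59 to 5.62) lower in IWR1 than in NT. Slc30a1, the zinc exporter of the plasma membrane, was at 19.5, 28.4 and 30.1 CPM and Slc40a1, the iron exporter ferroportin, at 15.6, 22.5 and 20.6 CPM, each lowest in NT, with trend-removed IWR1 log2 differences of 0.59 and 0.44, near that of Slc39a8.

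**Figure D2:**
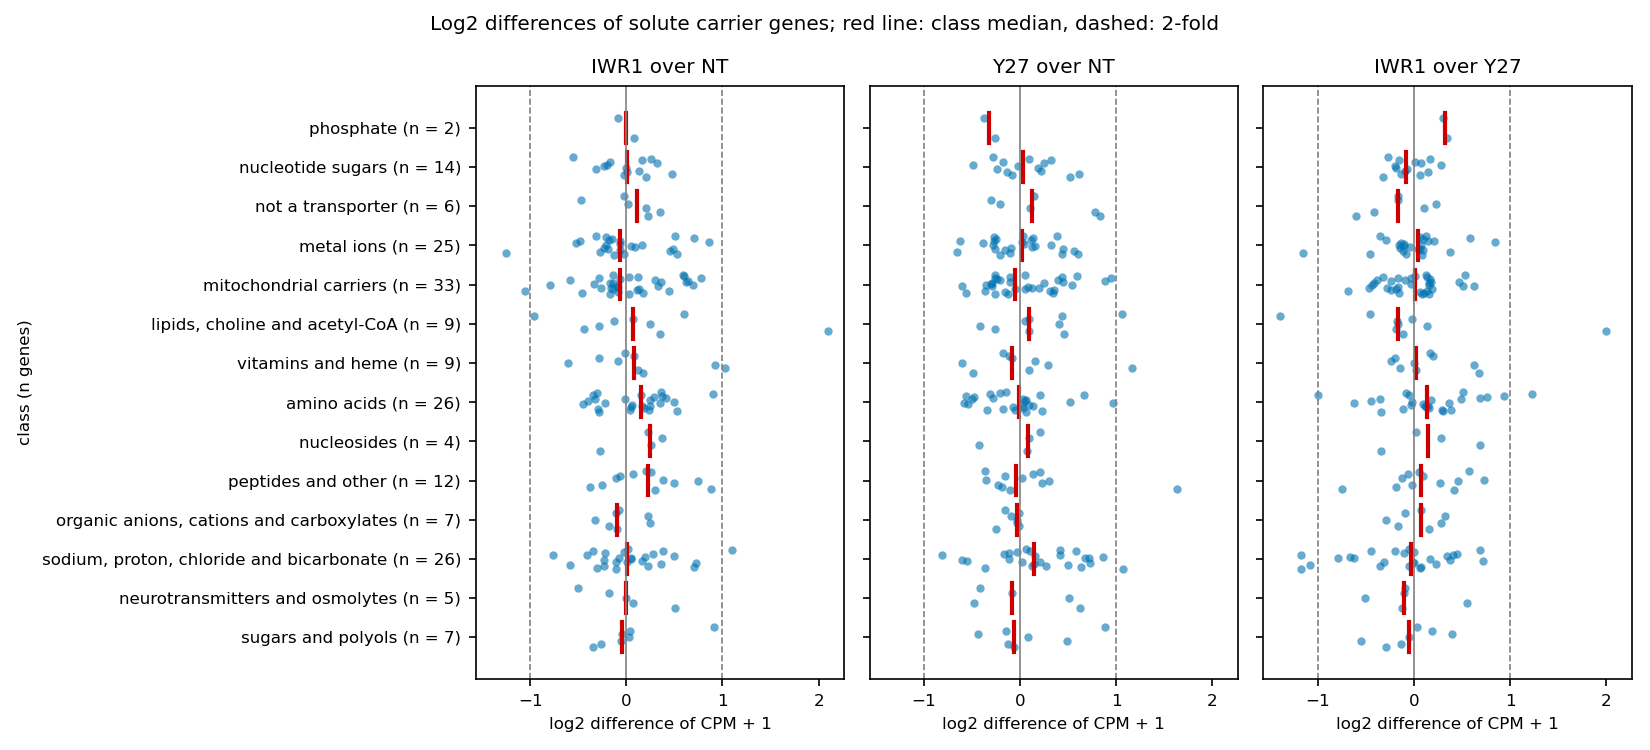
Log2 differences of CPM + 1 for each member (points) by class in IWR1 over NT, Y27 over NT and IWR1 over Y27, with class medians as red lines and 2-fold as dashed lines. Every class with at least 5 members has a median within 0.25 of 0 in all 3 panels, and the 13 genes past 2-fold in at least 1 panel come from several classes.

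Of 26 amino acid transporter genes 17 were above and 9 below NT in IWR1, against 5317 and 5709 of all 11026 genes. The class's median log2 difference was 0.15, which was 0.03 with the trend removed. At 1.5-fold 1 gene (3.85%) was higher and 0 lower, against 10% and 5.30% of all genes. That gene was Slc7a3 (Entrez Gene 11989), an importer of the cationic amino acids arginine and lysine, at 126 CPM in NT, 238 CPM in IWR1 and 101 CPM in Y27. It was 1.88-fold (1.72 to 2.06) higher in IWR1 than in NT on 715 and 1332 counts. Per length it was at 53.9 FPKM in NT and 103 FPKM in IWR1, where its value was the highest of the class. Its counting interval in IWR1, 97.5 to 109 FPKM, overlapped that of Slc7a7 (91.3 to 102), so the order of these 2 is not resolved. With that of Slc38a2 (90.9 to 98.4) it overlapped only at the edge, which does not by itself leave the order open. The log2 difference of Slc7a3 was 0.91, and 0.94 with the trend removed. The class's summed counts were 1.16-fold (1.13 to 1.19) of those in NT, and 1.11-fold (1.08 to 1.13) without Slc7a3. Slc7a7, a light subunit that exports cationic amino acids in exchange for neutral ones, was at 164, 211 and 148 CPM, and Slc7a1, the main cationic amino acid importer of many cells, at 113, 146 and 76.0 CPM, so that IWR1 was the high library for these too. Slc7a6, a relative of Slc7a7 with the same exchange, was instead highest in NT, at 157, 127 and 135 CPM.

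Among mitochondrial carriers 6 of 33 genes (18.2%) were past 1.5-fold above NT in the IWR1 library and 3 (9.09%) past it below, against 10% and 5.30% of all genes. The 6 were Slc25a27, Slc25a32, Slc25a51, Slc25a46, Slc25a40 and Slc25a36, with log2 differences of 0.70, 0.62, 0.59, 0.60, 0.78 and 0.64. With the trend removed these stood at 0.74, 0.61, 0.58, 0.27, 0.25 and 0.15, so those of Slc25a46, Slc25a40 and Slc25a36 depended on the trend. Of the 3 below, Slc25a14 stood at -1.05 as before and Slc25a26 at -0.68 against -0.80. Slc25a14, an inner membrane carrier of the uncoupling protein group, was lowest in IWR1, with 115 counts in NT, 52 in IWR1 and 87 in Y27, 2.19-fold (1.57 to 3.10) lower in IWR1 than in NT. Slc25a26, the mitochondrial importer of S-adenosylmethionine, had 69, 37 and 52 counts, 1.85-fold (1.22 to 2.83) lower in IWR1, and Slc25a38, a glycine carrier needed for heme synthesis, was at 29.5, 19.3 and 25.4 CPM, with a log2 difference of -0.59 from NT that stood at -0.37 with the trend removed. Slc25a51, the mitochondrial NAD importer, was higher in IWR1, at 91.8, 139 and 95.4 CPM, on partly fractional counts. The 3 highest carriers, Slc25a3, Slc25a5 and Slc25a4, were 1.10-fold (1.05 to 1.16), 1.10-fold (1.04 to 1.17) and 1.22-fold (1.13 to 1.31) lower in IWR1 than in NT, which, for Slc25a5 and Slc25a4, are log2 differences of -0.14 and -0.29 that stood at -0.08 and -0.12 with the trend removed. Without these 3 the class's summed counts were 1.02-fold (0.983 to 1.05) of those in NT.

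The second comparison, Y27 over NT, asks which transporter genes differed with Y27. It has the same NT library as the first, so the results of the pair are not independent. At 2-fold, 4 members were higher and 0 lower, or 2.16% of 185 higher, against 5.50% of all genes higher and 1.11% lower. At 1.5-fold 20 members (10.8%) were higher and 6 (3.24%) lower, against 14.0% and 4.80%. The median was 0.02 for the members and -0.04 for all genes. After taking out the trend with length and GC, 2 members were at least 2-fold higher, Slc15a2 and Slc23a1, and 0 lower, against 1.11% and 0.743% of the whole set.

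This trend bears on the members in Y27 over NT. Across the 184 members with a GC value the log2 difference had a rank correlation of 0.32 with transcript length and of -0.46 with GC content, against 0.23 and -0.37 in IWR1 over NT and -0.05 and 0.12 in IWR1 over Y27, where members share libraries and their annotation. The 20 members past 1.5-fold above NT in Y27 had a median length of 4199 bases and a median GC content of 47.0%, and the 6 at least 1.5-fold lower 3140 bases and 58.1%. All members together had medians of 3193 bases and 52.2%. What produced the trend was not tested. Values with the trend removed are given below for most of the larger differences. For larger Y27 differences from NT that are described below without them, the log2 differences moved as follows: Slc5a5 (-0.81 to -0.59), Slc39a3 (-0.63 to -0.45), Slc4a2 (-0.61 to -0.46) and Slc25a25 (-0.60 to -0.45). Of the smaller Y27 differences from NT of named genes many also moved, among them Slc27a3 (-0.26 to -0.01), Slc12a4 (-0.37 to -0.20), Slc15a4 (-0.19 to -0.04), Slc39a7 (-0.25 to 0.00), Slc38a2 (0.13 to -0.33) and Slc7a2 (0.66 to 0.42).

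Slc15a2 (Entrez Gene 57738), an importer of dipeptides and tripeptides, was the member with the largest difference in Y27. It had 44 counts in NT, 85 in IWR1 and 146 in Y27, or 7.78, 15.2 and 26.2 CPM. The 3 libraries were thus all apart, with Y27 3.36-fold (2.38 to 4.82) above NT, IWR1 1.95-fold (1.34 to 2.87) above NT (log2 0.88, or 0.58 with the trend removed) and IWR1 1.72-fold (1.31 to 2.28) below Y27. The log2 difference of Y27 from NT was 1.63, and 1.19 with the trend removed. Slc15a4, a transporter of peptides and histidine in lysosomes, was highest in NT, with 181, 137 and 156 counts.

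Ion transporters held several of the Y27 differences. Slc12a2 (Entrez Gene 20496), which encodes the sodium-potassium-chloride cotransporter that brings chloride into cells and serves in cell volume control, was at 69.9 CPM in NT, 64.8 CPM in IWR1 and 148 CPM in Y27. In CPM, Y27 was the high library, 2.12-fold (1.88 to 2.40) above NT on 827 and 395 counts, and the other libraries lay together. The log2 difference of Y27 from NT was 1.07, but 0.22 with the length and GC trend removed. IWR1 was lower than Y27 by 2.29-fold (2.02 to 2.59), a log2 difference of -1.18 that stood at -0.89 with the trend removed. From NT, IWR1 stood at -0.66 with the trend removed, so which library stood apart depended on the trend. Slc4a7, a sodium-bicarbonate cotransporter that brings base into cells, was also highest in Y27, at 96.6, 111 and 176 CPM, 1.82-fold (1.64 to 2.03) higher in Y27 than in NT, with a log2 difference of 0.86 and of 0.26 with the trend removed. Slc4a4 and Slc4a5, further sodium-bicarbonate cotransporter genes, were low but also highest in Y27, at 5.57, 5.23 and 9.75 CPM and at 5.48, 5.72 and 9.32 CPM, with log2 differences of 0.71 and 0.67 from NT that stood at 0.46 and 0.75 with the trend removed.

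A chloride-bicarbonate exchanger and an iodide carrier were lowest in Y27. Slc4a2, an exchanger of chloride for bicarbonate, was at 74.0, 62.9 and 48.2 CPM, 1.53-fold (1.31 to 1.79) lower in Y27 than in NT, and Slc5a5, the sodium-iodide symporter, at 29.0, 21.6 and 16.1 CPM, 1.80-fold (1.38 to 2.35) lower. Slc4a11, a proton and water conductance of the same family as Slc4a2, was at 84.2, 94.3 and 57.2 CPM. The potassium-chloride cotransporter genes Slc12a4 and Slc12a7, whose products carry chloride out of cells, differed from each other: Slc12a4 was highest in NT, at 94.8, 76.6 and 73.3 CPM, and Slc12a7 highest in Y27, at 172, 146 and 187 CPM. Over the 26 genes of the ion class 18 were above and 8 below NT in Y27, against 5048 and 5976 of all 11026 genes. The class median was 0.15, or 0.10 with the trend removed. With the trend left in, 6 (23.1%) were past 1.5-fold higher and 2 (7.69%) lower, against 14.0% and 4.80% of all genes. The summed counts were 1.14-fold (1.10 to 1.19) of those in NT, and 1.07-fold (1.03 to 1.11) without Slc12a2.

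**Figure D3:**
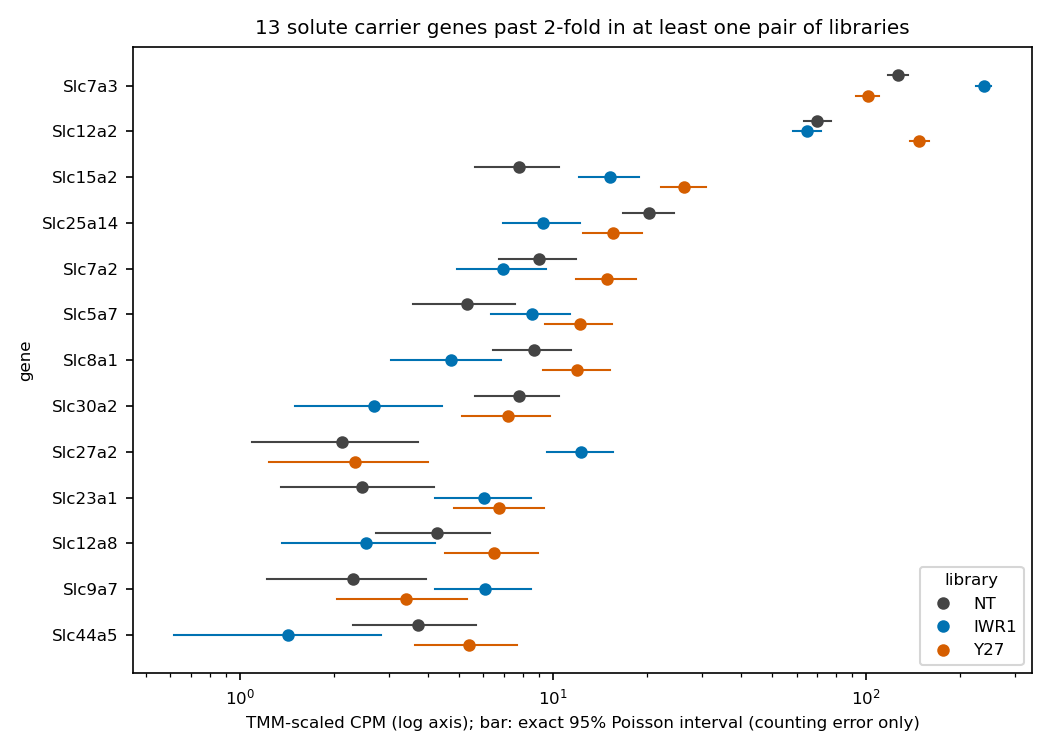
TMM-scaled CPM (log axis) in NT, IWR1 and Y27 of the 13 genes past 2-fold in at least 1 pair of libraries, with bars for the exact 95% Poisson interval of counting error. Slc7a3, Slc27a2 and Slc9a7 are highest in IWR1, Slc12a2 and Slc15a2 in Y27, and most of the other genes lie under 20 CPM with wide bars.

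Carriers of organic osmolytes and choline differed among themselves. Slc5a3, the sodium-coupled importer of myo-inositol, was at 21.1 CPM in NT, 40.6 CPM in IWR1 and 39.6 CPM in Y27, low in NT and level in the treated libraries. Its log2 differences from NT of 0.92 and 0.88 stood at 0.49 and 0.22 with the trend removed, and its counts were partly fractional. Slc6a6, the taurine importer, was within 1.14-fold of NT in both, at 423, 373 and 400 CPM, and Slc6a8, the creatine importer, highest in NT, at 56.4, 39.5 and 42.1 CPM. Slc5a7, the choline importer of cholinergic neurons, was low, with 30, 48 and 68 counts, 2.30-fold (1.47 to 3.66) higher in Y27 than in NT, and its log2 difference of 1.06 was 0.50 with the trend removed.

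The 3 highest mitochondrial carriers were slightly lower in Y27 than in NT, and other carriers differed in either direction. Slc25a3, Slc25a5 and Slc25a4 were 1.22-fold (1.16 to 1.29), 1.20-fold (1.13 to 1.28) and 1.20-fold (1.11 to 1.29) lower, Slc25a11, the oxoglutarate carrier, 1.49-fold (1.33 to 1.66) lower on partly fractional counts, and Slc25a25, a calcium-regulated carrier of ATP-Mg, 1.54-fold (1.21 to 1.97) lower. With the trend removed the log2 differences of Slc25a5, Slc25a4 and Slc25a11 from NT shrank from -0.26, -0.26 and -0.57 to -0.13, -0.01 and -0.30, while that of Slc25a3 was -0.23 against -0.29. Slc25a36, a pyrimidine nucleotide carrier, was instead at 30.1, 47.5 and 56.3 CPM in NT, IWR1 and Y27, and Slc25a40, a relative of the glutathione carrier Slc25a39, at 12.7, 22.5 and 25.4 CPM. Both depended on the trend, with Y27 log2 differences of 0.88 and 0.94 that stood at 0.14 and 0.16 with it removed. Slc25a40, at 1.998-fold (1.49 to 2.69), was just short of 2-fold, and Slc38a6, an amino acid transporter gene at 2.10-fold (1.41 to 3.21), did not pass it once 1 CPM was added. Over all 33 carriers 16 were above and 17 below NT, in IWR1 as in Y27. Of all 11026 genes 5317 were above NT in IWR1 and 5048 in Y27. The class's summed counts in Y27 were 0.890-fold (0.869 to 0.912) of those in NT, or 0.958-fold (0.926 to 0.991) without the 3 highest.

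**Figure D4:**
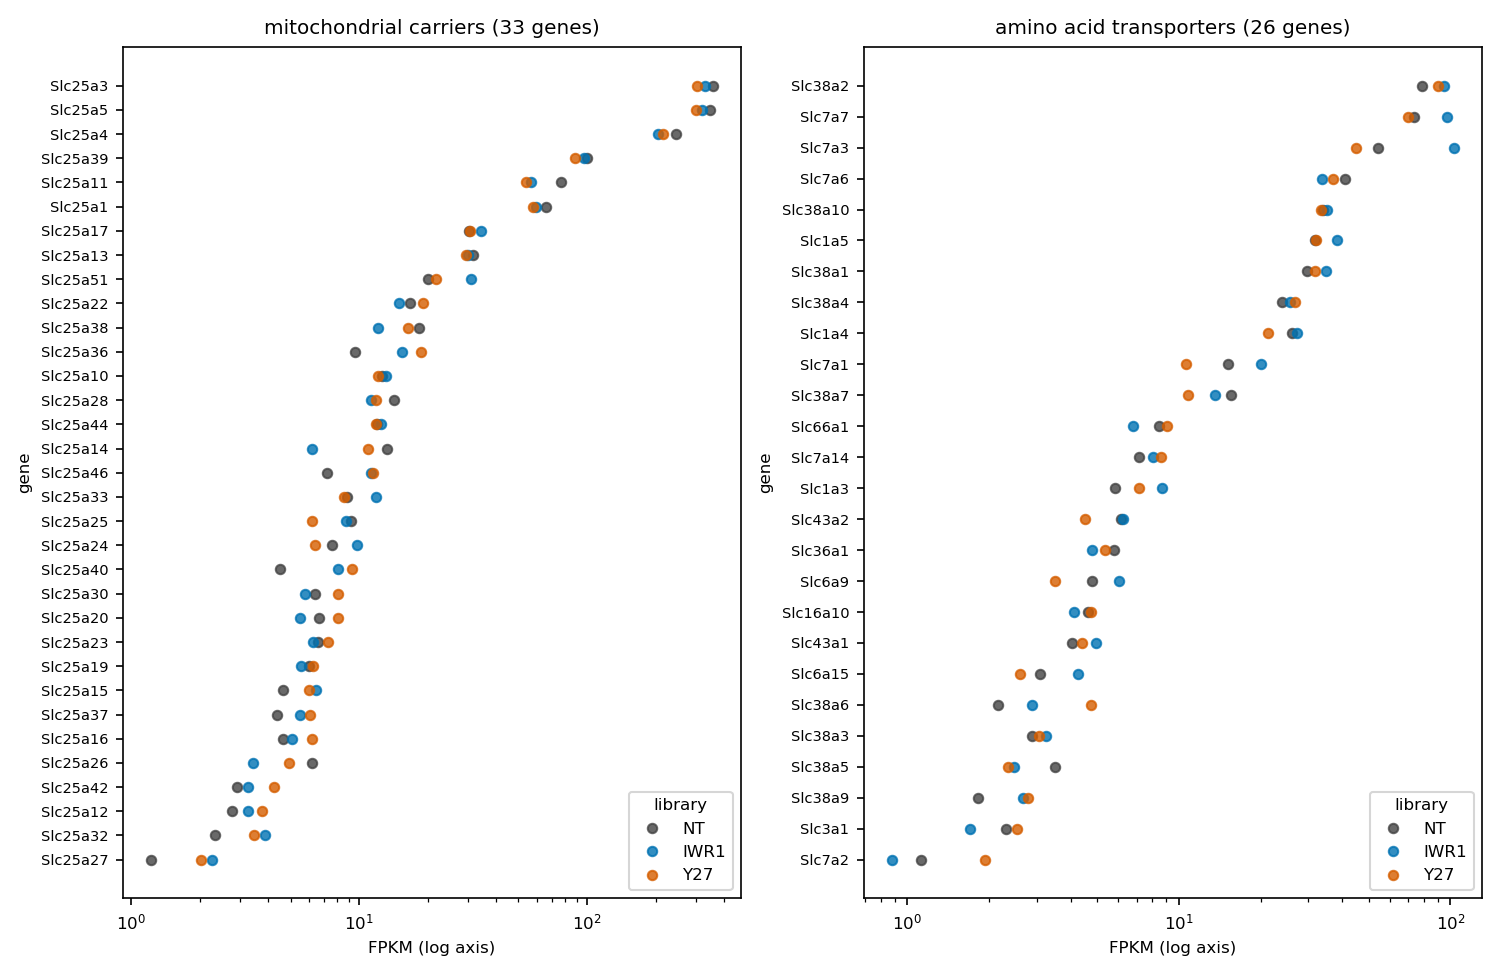
FPKM (log axis) in NT, IWR1 and Y27 of the 33 mitochondrial carriers and the 26 amino acid transporters, each ordered by its mean over the libraries. NT is the highest of the 3 for Slc25a3, Slc25a5 and Slc25a4, while IWR1 is the highest for Slc38a2, Slc7a7 and Slc7a3. For Slc38a2 the IWR1 log2 difference from NT of 0.25 stood at -0.07 with the trend removed, while those of Slc7a7 and Slc7a3 stood at 0.51 and 0.94.

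Other nutrient carriers lower in Y27 than in NT included both phosphate importers and the folate importer. Slc20a1 and Slc20a2 were 1.20-fold (1.11 to 1.29) and 1.31-fold (1.17 to 1.45) lower, at 227 and 108 CPM in Y27 against 273 and 141 CPM in NT. In IWR1 they were at 288 and 133 CPM, close to NT. Slc19a1, the reduced folate carrier, was at 22.6, 25.7 and 15.8 CPM in NT, IWR1 and Y27, and its log2 difference in Y27 of -0.50 stood at -0.26 with the trend removed. Slc7a1 was 1.48-fold (1.31 to 1.68) lower in Y27 than in NT. Among nucleotide sugar transporters of the Golgi, Slc35a3, for UDP-N-acetylglucosamine, was at 20.5, 28.9 and 31.9 CPM and Slc35a1, for CMP-sialic acid, at 24.8, 28.6 and 36.0 CPM, lowest in NT, and the Y27 log2 difference of 0.61 for Slc35a3 stood at 0.28 with the trend removed. None of that class of 14 passed 2-fold in any pair.

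Further metal ion and cofactor genes were highest in NT. Slc46a1, the proton-coupled folate transporter, was at 7.61 CPM in NT, 4.64 CPM in IWR1 and 4.66 CPM in Y27, and its log2 differences from NT of -0.61 and -0.60 stood at -0.41 and -0.34 with the trend removed. Slc30a3, which loads zinc into vesicles, was at 16.6, 13.6 and 10.2 CPM, and its Y27 difference of -0.65 stood at -0.38. Slc39a3, a zinc importer, was at 6.90, 4.64 and 4.12 CPM and Slc39a13, a zinc transporter of the secretory pathway, at 12.0, 8.04 and 8.96 CPM. The fold intervals over NT included 1 for Slc39a3 in IWR1 and Y27, for Slc39a13 in Y27 and for Slc30a3 in IWR1. Slc39a1, a zinc-importing relative of Slc39a3 and Slc39a13, was high per length, at 48.4, 42.7 and 41.5 FPKM. The thiamine importer Slc19a2, at 81.7, 88.8 and 87.3 CPM, and the riboflavin importer Slc52a2, at 26.2, 27.7 and 24.0 CPM, led the vitamin class by mean FPKM and were nearly level between libraries.

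Among amino acid and nucleoside carriers with smaller differences, Slc1a3, a glutamate importer, was at 25.3, 37.0 and 29.7 CPM in NT, IWR1 and Y27, highest in IWR1. Slc38a7, a lysosomal exporter of glutamine and asparagine, was at 52.5, 45.0 and 34.8 CPM, lowest in Y27 with a log2 difference of -0.58 from NT, or -0.41 with the trend removed. Slc29a2, an equilibrative nucleoside transporter, was at 23.7, 28.6 and 17.4 CPM, also lowest in Y27. Its relatives Slc29a3, of lysosomes, at 12.2, 16.1 and 13.1 CPM, and Slc29a4, at 10.3, 12.1 and 12.0 CPM, were lowest in NT. For both, the fold intervals over NT included 1, so these orders are not resolved. Of vesicular carriers, Slc18a1, for monoamines, was at 3.36, 5.18 and 5.73 CPM and Slc18b1, for polyamines, at 12.6, 12.6 and 18.3 CPM.

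The organic anion, cation and carboxylate class had no gene past 1.5-fold in any pair. Slc16a13, of the monocarboxylate family, was at 12.6, 12.0 and 11.1 FPKM in NT, IWR1 and Y27. Slc22a5, the carnitine importer, was at 6.95, 6.70 and 6.49 FPKM on partly fractional counts. Slc17a5, which exports sialic acid from lysosomes, was lowest in IWR1, at 18.4, 14.5 and 18.0 CPM, and Slc16a6 highest there, at 14.2, 17.0 and 13.8 CPM. In the lipid class Slc27a1, a fatty acid transport protein gene, was at 17.6, 22.7 and 24.7 CPM, lowest in NT unlike Slc27a3 and Slc27a4, and Slc44a2, a choline transporter-like gene, was nearly level at 10.3, 11.1 and 11.5 FPKM.

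Sugar carriers and the Slc35 relatives with less settled substrates were mostly close between libraries. Slc2a8, an intracellular glucose transporter, was at 10.7, 8.48 and 10.7 FPKM in NT, IWR1 and Y27, Slc45a4 at 9.02, 10.2 and 8.62 FPKM and Slc37a2, a sugar phosphate carrier, at 1.49, 1.45 and 2.28 FPKM. Slc35g1, Slc35a4 and Slc35f5 were high within their classes, at 28.6, 25.3 and 15.6 FPKM in NT, and differed little between libraries. Slc35c2 was at 19.8, 17.6 and 14.6 FPKM and Slc35e4 at 20.7, 13.8 and 16.8 CPM, both highest in NT. Slc35f2 was highest in IWR1, at 41.4, 54.1 and 32.3 CPM, as were Slc35f1, at 3.32, 6.26 and 4.30 CPM, and Slc66a2, at 6.55, 7.68 and 4.84 CPM. The counting intervals of NT and IWR1 overlapped widely for Slc66a2 (4.61 to 9.02 and 5.56 to 10.3 CPM), so this order is not resolved. For Slc35f1 they overlapped in part (2.02 to 5.25 and 4.36 to 8.70 CPM), which does not by itself settle the order. The Slc35f1 interval in Y27, 2.76 to 6.40 CPM, overlapped that in IWR1 more.

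The third comparison set IWR1 against Y27, which had both been treated for 12 h. Of the members 2 stood at least 2-fold above Y27 in IWR1 and 6 at least 2-fold lower, or 1.08% and 3.24%, against 1.11% and 2.45% of all genes. At 1.5-fold 13 were higher and 13 lower, 7.03% in each direction, against 3.99% and 6.65%. The genes past 2-fold higher were Slc27a2 and Slc7a3, and those lower were Slc44a5, Slc12a2, Slc8a1, Slc30a2, Slc12a8 and Slc7a2. Slc44a5, a choline transporter-like gene with 8 counts in IWR1, Slc8a1 and Slc12a8 were at most at 66.6 counts in any library. With the length and GC trend removed 2 members were at least 2-fold higher and 3 lower, against 1.11% and 2.15% of the whole set of genes.

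Of the 26 amino acid transporter genes 4 (15.4%) were at least 1.5-fold above Y27 in IWR1 and 2 (7.69%) below, against 3.99% and 6.65% of all genes. Slc7a3 was 2.35-fold (2.13 to 2.60) higher in IWR1 than in Y27, Slc7a1 1.92-fold (1.71 to 2.17) on partly fractional counts, the glycine importer gene Slc6a9 1.76-fold (1.28 to 2.43) and Slc6a15, a neutral amino acid importer gene, 1.68-fold (1.18 to 2.43). Slc7a2, the remaining cationic amino acid importer gene of this set, ran opposite, at 9.03, 6.91 and 14.8 CPM in NT, IWR1 and Y27, 2.15-fold (1.44 to 3.21) lower in IWR1 than in Y27. The class's summed counts were 1.21-fold (1.18 to 1.24) higher in IWR1 than in Y27, and 1.15-fold (1.12 to 1.18) without Slc7a3. In the ion class 2 of 26 genes (7.69%) passed 1.5-fold towards IWR1 and 6 (23.1%) towards Y27, against the 3.99% and 6.65% of all genes. The 6 genes of the set that encode no transporter were also within 2-fold in all pairs. Their highest, Slc9a3r1, which encodes a scaffold that links transporters to the actin cytoskeleton through ezrin, was at 99.7, 73.3 and 84.2 FPKM in NT, IWR1 and Y27, highest in NT.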

How the data were processed

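The 3 libraries used were NT, IWR1 and Y27, 1 per group, by the labels, and no other library enters. Per the file headers, each table pairs Entrez identifiers with a length, expected count and FPKM. The deposited expected counts are the authors' estimates of reads and are not normalized. The authors' FPKM values divide those counts by length and by the library's summed counts. Recomputed, 94.2%, 94.1% and 94.0% of genes over 50 counts came within 2%. Transcript lengths, another value the authors deposited, were used for the trend. Bowtie 0.12.2 and mm8 are named in the submitters' processing notes. For the counting tool, nothing is stated in the labels or headers. Genes absent from a table were taken as 0.

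Symbols came from RefSeq on GRCm38.p6 for 17160 of 17209 identifiers (99.7%), and GC content from GENCODE M21 transcripts, for 99.5% of members. Promoter coordinates are GRCm38.p6 and belong to the sequences, not to the files. Counts were scaled with TMM factors (0.980, 0.998 and 1.02; edgeR 4.0.16, R 4.3.3), with 1 CPM added for log2 differences. Intervals are exact conditional binomial or Poisson on counts rounded to whole numbers. Of the members 149 had whole counts in every table (to within 0.005) and 36 did not. Steps were checked on simulated data. Named genes were the 8 largest differences per direction and pair, the 3 highest per class by FPKM and the 2 largest differences per class, plus relatives of these chosen after their values were seen. Results on some genes are not reported here. The members and classes were chosen with earlier results of these data known; 3 symbols (Slc36a1os, Slc4a1ap and Slc2a4rg-ps) were moved to the non-transporter group after the tables were read. Alternatives were other scalings (library total, upper quartile, DESeq2 1.42.0 size factors), added counts, minimums, thresholds, FPKM, trend removal and whole-count genes. The remaining steps used Python 3.11.15 (scipy 1.17.1, pandas 2.3.3).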

Additional observations from a re-analysis of the deposited data

How the results depend on the processing

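With 1 library per group there was no replicate to leave out. No paired analysis was possible because each group has 1 library. Over the scaling, added count, minimum, unit, trend and whole-count settings, the members' median log2 difference ran from -0.03 to 0.06 in IWR1 over NT, from -0.07 to 0.08 in Y27 over NT and from -0.04 to 0.04 in IWR1 over Y27, so its sign is not settled in any pair. No gene past 2-fold turned its direction. Counts past 2-fold are small and moved more, in the order higher then lower. For IWR1 over NT (3 and 2) they were 1 and 0 with 5 CPM added, 0 and 1 with a minimum of 100 counts, 5 and 5 with a minimum of 10, 19 and 7 at 1.5-fold, 1 and 0 at 3-fold, and 3 and 4 with the length and GC trend removed. For Y27 over NT (4 and 0) the number higher was 2 with 5 CPM added, 2 with a minimum of 100, 20 (and 6 lower) at 1.5-fold, 1 at 3-fold and 2 with the trend removed. For IWR1 over Y27 (2 and 6) the number lower was 1 with 5 CPM added, 3 with the trend removed and 3 with whole counts alone; both numbers were 1 with a minimum of 100, 13 at 1.5-fold, and 1 and 0 at 3-fold. The shares of all genes past the threshold moved too, again higher then lower. With 5 CPM added they were 0.726% and 0.889% in IWR1 over NT and 3.08% and 0.381% in Y27 over NT. In IWR1 over Y27 they were 0.481% and 1.32%. For the pairs in this order, they were 0.327% and 0.617%, 0.626% and 0.190%, and 0.263% and 0.825% at 3-fold. Those with the trend removed and at 1.5-fold are given above. No such share was taken at other minimums or for whole counts alone. No gene was listed more than once, so taking repeated entries apart was not run. A minimum changes which genes are counted and a threshold what is counted; for the added CPM, which weighs on low genes, and the trend the cause was not tested. Depth limits the low members: at 30 counts a fold of 2 has a wide counting interval, as for Slc23a1 and Slc9a7, and cannot be told from smaller or larger folds.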
